A study of Mus musculus with 8 samples.

Results

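Cirbp and Rbm3 encode small RNA-binding proteins that cells make in greater amounts under mild cold. Both were measured in whole kidney of mice given cinacalcet hydrochloride and of mice on standard chow, with 4 arrays per group. The members were all non-control probes whose listed RefSeq accession belongs to either gene, and these were 4 of 55681 probes, 1 for Cirbp and 3 for Rbm3. The pair was chosen because its signal differed between these same groups, so the difference between cinacalcet and control is described below and was not tested.

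The labels give all mice as males of 12 weeks. Controls received standard chow, and the treated mice received cinacalcet HCl at 1 mg per g body weight, as the labels word it, for 5 days. Cinacalcet is a calcimimetic, a drug that makes the calcium-sensing receptor more responsive to calcium. Strain, body temperature and the hour at which kidneys were taken are not given in the sources used here. The labels do not say whether the numbered samples came from separate animals, so a p-value here reflects the spread among samples, which may be technical.

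All 8 arrays lay on 1 slide, with 51.8% to 58.0% of their spots well above background. All 11 kidney epithelial markers examined were well above background on all 8 arrays. The arrays labelled control 4, cinacalcet 2 and cinacalcet 3 had no Y-linked gene of 4 above background, against 3 or 4 of them on each of the other arrays, although all mice are labelled male. Xist, the transcript of the inactive X chromosome, was at 0.46 to 0.95 on those 3 arrays. On the rest it was at -4.22 on cinacalcet 1, where all 4 Y-linked genes were above background, and at -6.99 to -6.38 elsewhere. Xist was well above background on 4 of the 8 arrays. The difference of each Cirbp and Rbm3 probe is therefore also given without the 3 arrays that lacked Y-linked signal, which keeps cinacalcet 1. Rbm3 itself lies on the X chromosome. Levels are log2 intensities relative to the 75th percentile of the same array, with SD and n = 4 per group.

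Cirbp, the cold-inducible RNA-binding protein, and Rbm3, RNA-binding motif protein 3, each pair an RNA recognition motif with a glycine-rich stretch. Mild hypothermia raises their RNA in mammalian cells, heat lowers it, and in mice both follow the daily cycle of body temperature. They bind other RNAs and affect their stability, splicing and translation. A short promoter motif, the mild-cold responsive element, has been described in mouse Cirbp as a site where the transcription factor Sp1 acts.

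RefSeq lists 2 start sites of Cirbp in the promoter table used here, and no entry for Rbm3. The listed Cirbp gene begins at position 80165990 of chromosome 10, before both of these sites, and the bases before that position were not searched. The 250 bases before the first start site, on the plus strand of GRCm38.p6 at chr10:80167589-80167838, are shown because they hold that motif, printed in capitals.

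Cirbp promoter: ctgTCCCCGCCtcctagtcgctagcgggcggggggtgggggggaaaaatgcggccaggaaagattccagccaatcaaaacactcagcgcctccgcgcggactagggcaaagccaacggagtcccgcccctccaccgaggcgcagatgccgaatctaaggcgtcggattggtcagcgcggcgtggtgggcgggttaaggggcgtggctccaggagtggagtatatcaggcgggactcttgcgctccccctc

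Both strands were searched. The motif TCCCCGCC occurred 1 time in this window, on the plus strand, and not in the window of the second start site. It was held by 4.64% of the 32851 promoter windows of that length. GC boxes, spelled GGGCGG and known as Sp1 sites, occurred 3 times before the first start site and 4 times before the second. They were held by 32.7% of all windows, and none overlapped the mild-cold motif. The CCAAT box occurred 2 times before the first start site and was held by 33.8% of all windows. Neither the heat shock element GAANNTTC (6.69% of windows) nor the E-box CACGTG (6.02%) was present in either window. These matches describe letters only.

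Cirbp was represented by probe A_51_P272106, listed against NM_007705, which was well above background on all 8 arrays. Its level was 3.16, 2.67, 2.37 and 2.60 on controls 1 to 4. On cinacalcet arrays 1 to 4 it was 4.05, 4.21, 4.62 and 4.42. All cinacalcet arrays lay above all controls, with a gap of 0.88 between the nearest arrays. As background-subtracted intensity this was 1164 to 2302 in controls and 4121 to 6225 with cinacalcet.

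The group means for Cirbp were 2.70 ± 0.33 (SD, n = 4) and 4.32 ± 0.25 (SD, n = 4). The difference was 1.62 (SE 0.21), or 3.08-fold higher with cinacalcet. Of 14209 genes tested, 35 had a larger difference in that direction, a rank given as a description since the gene was chosen on it. Probes whose groups did not overlap and were higher with cinacalcet made up 9.42% of the 29732 probes above background on at least 4 of 8 arrays.

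**Figure D1:**
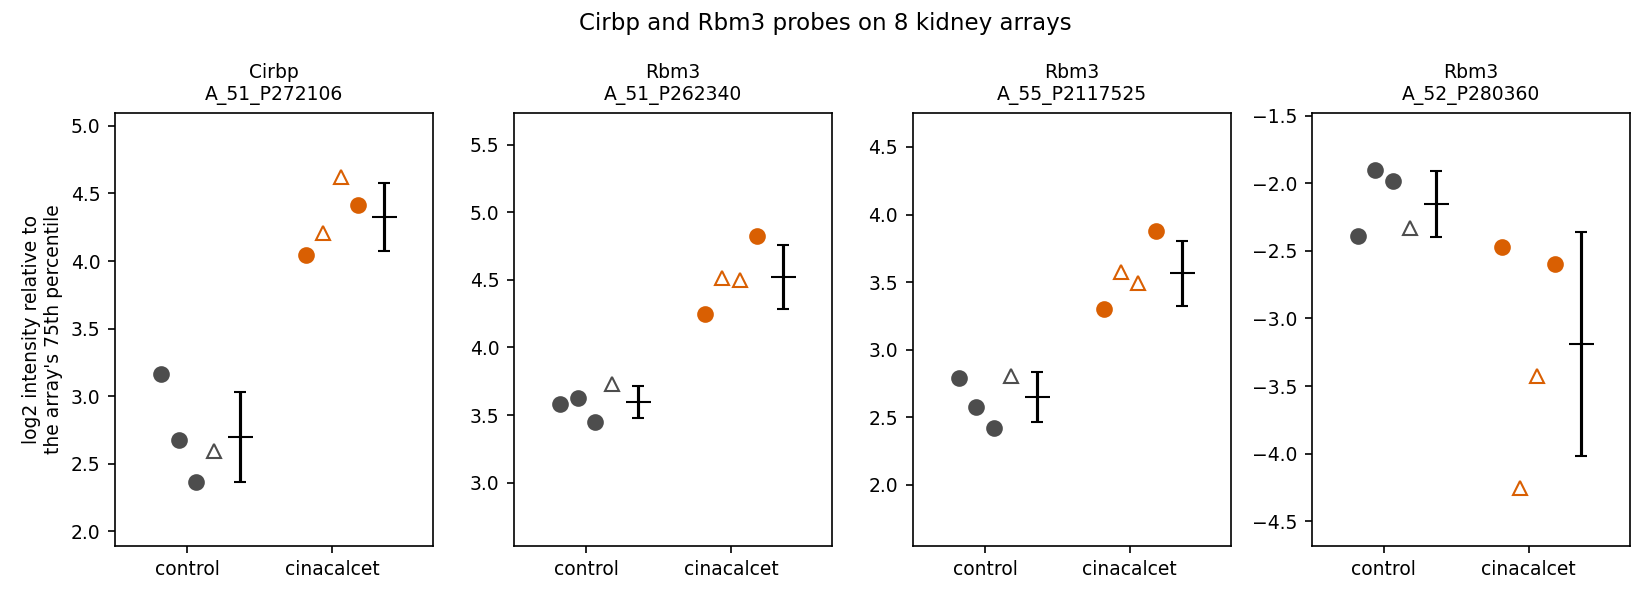
Log2 intensity relative to the array's 75th percentile (vertical axis) of the Cirbp probe and the 3 Rbm3 probes on the 4 control (grey) and 4 cinacalcet (orange) arrays, numbered 1 to 4 from left to right. Open triangles are the 3 arrays without Y-linked signal and black bars the group mean ± SD. The first 3 panels show every cinacalcet array above every control, and the last shows A_52_P280360 lower with cinacalcet, furthest on arrays 2 and 3.

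Rbm3 had 2 bright probes that were higher with cinacalcet. Probe A_51_P262340, listed against NM_001166409, was at 3.58, 3.63, 3.45 and 3.73 on controls 1 to 4. It was at 4.25, 4.51, 4.50 and 4.82 on cinacalcet arrays 1 to 4. The groups did not overlap, with a gap of 0.51, and the highest array was cinacalcet 4. The means were 3.60 ± 0.12 and 4.52 ± 0.24 (SD, n = 4 each), a difference of 0.92 (SE 0.13) or 1.90-fold.

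Probe A_55_P2117525, listed against NM_001166410, gave nearly the same difference. Its level was 2.79, 2.57, 2.42 and 2.81 on controls 1 to 4 and 3.30, 3.57, 3.50 and 3.88 on cinacalcet arrays 1 to 4. Again the groups did not overlap and cinacalcet 4 was highest. The means were 2.65 ± 0.19 and 3.56 ± 0.24 (SD, n = 4 each), a difference of 0.92 (SE 0.15) or 1.89-fold. The gap between the levels of these 2 probes varied by 0.27 over the 8 arrays, and its group mean changed by -0.01. Of the genes tested, 200 had a larger difference than the brighter Rbm3 probe in that direction.

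The remaining Rbm3 probe, A_52_P280360, listed against NM_016809, was lower with cinacalcet. It was well above background on all 8 arrays, yet its intensity was only 40.3 to 59.0 in controls and 12.5 to 45.1 with cinacalcet. The level was -2.39, -1.90, -1.98 and -2.33 on controls 1 to 4. It was -2.47, -4.26, -3.43 and -2.60 on cinacalcet arrays 1 to 4. The groups did not overlap, but only 0.08 separated control 1 from cinacalcet 1. Most of the difference came from cinacalcet 2 and 3, both without Y-linked signal, while control 4, which also lacked it, stayed among the other controls.

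The means of this probe were -2.15 ± 0.24 and -3.19 ± 0.83 (SD, n = 4 each), a difference of -1.04 (SE 0.43), or 2.05-fold lower. Probes whose groups did not overlap and were lower with cinacalcet made up 7.33% of the 29732 probes. The scanner software's own error was 10.7% to 19.4% of its signal, above that of the other 3 probes on all arrays. With normexp background correction the difference was -0.36, and it was -0.44 on the 5 arrays where Y-linked genes were detected. Without cinacalcet 2 it was -0.68.

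The 3 accessions of the Rbm3 probes belong to transcripts of 1 gene, and the part of the transcript each probe reads is not given in the sources used here. Among 3671 genes with at least 2 probes above background on at least 4 arrays, 28 genes, or 0.763%, had some probe higher and another lower without overlap of the groups. Rbm3 is among them by the way it was chosen. Among the 593 genes with at least 3 such probes there were 11, or 1.85%. A mean over its 3 probes gave Rbm3 a difference of 0.27, in place of 0.92 from its brightest probe. The long noncoding gene Rbm3os overlaps the start of Rbm3, and its probe was not well above background on any of the 8 arrays.

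The differences of Cirbp and of both bright Rbm3 probes had the same sign in the arrays with and without Y-linked signal. On the 5 arrays with that signal, Cirbp differed by 1.50 (2.82-fold), A_51_P262340 by 0.98 (1.98-fold) and A_55_P2117525 by 1.00 (2.00-fold). On the other 3 arrays, 2 cinacalcet against 1 control, the differences were 1.82, 0.77 and 0.73. For A_52_P280360 these values were -0.44 and -1.51. Within the cinacalcet group, the arrays without Y-linked signal minus those with it differed by 0.19 for Cirbp, -0.03 and -0.06 for the bright Rbm3 probes, and -1.31 for A_52_P280360.

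Slide position was set against the groups as well, since each of the 2 slide rows held 2 arrays per group. Cirbp differed by 1.82 within row 1 and 1.43 within row 2. A_51_P262340 differed by 0.84 and 1.01, and A_55_P2117525 by 0.90 and 0.93. A_52_P280360 differed by -1.01 and -1.07. With slide row as a block the values were 1.62, 0.92, 0.92 and -1.04, the same as without it, because the rows are balanced. The slide columns are not balanced, since column 1 held only cinacalcet arrays (1 and 4), column 4 only controls (2 and 4), and columns 2 and 3 held 1 array of each group. With slide column as a block the values were 1.65, 0.99, 0.93 and -1.66.

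**Figure D2:**
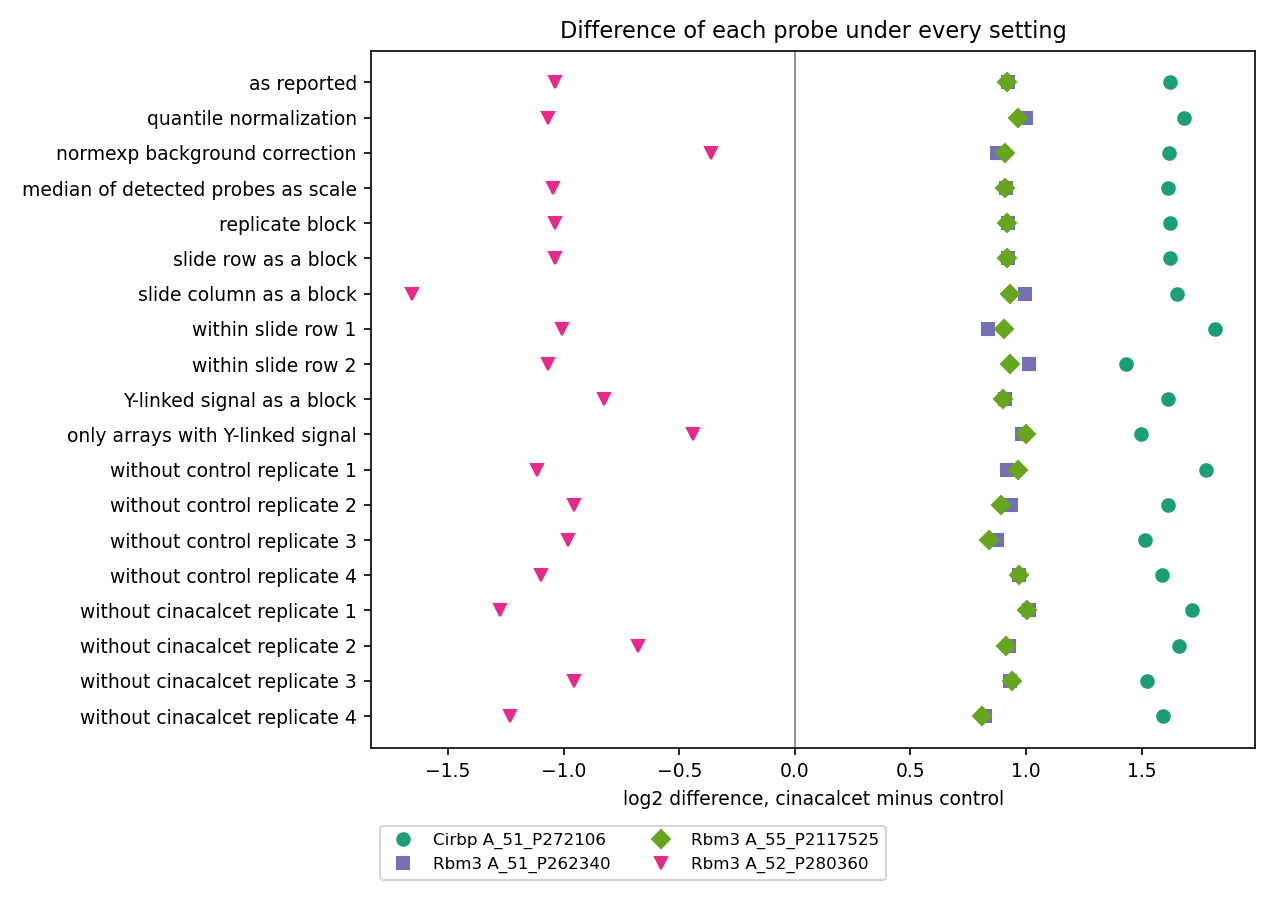
Log2 difference, cinacalcet minus control (horizontal axis), of each Cirbp and Rbm3 probe under each setting (vertical axis), from other normalizations to leaving out single arrays. Cirbp lies between 1.43 and 1.82 and the bright Rbm3 probes between 0.81 and 1.01, while A_52_P280360 ranges from -1.66 to -0.36.

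Cirbp and the bright Rbm3 probes shared their lowest arrays but not their highest. Cirbp was highest on cinacalcet 3 and, among controls, on control 1. Both bright Rbm3 probes were highest on cinacalcet 4 and lowest, among cinacalcet arrays, on cinacalcet 1, where Cirbp was also lowest. All 3 probes were lowest of all on control 3. The SD within groups was larger for Cirbp, at 0.30 pooled over both groups, than for the brightest Rbm3 probe, at 0.19, and the median over all genes tested was 0.17.

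Taken over deviations from the group means of the 8 arrays, the likeness (Pearson's r, a description) of the 2 bright Rbm3 probes was 0.91. That of Cirbp with each of them was 0.38 and 0.55. That of A_52_P280360 was -0.06 and -0.14 with the bright Rbm3 probes and -0.23 with Cirbp. The 8 arrays share 1 slide, and the values carry no test.

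The genes most like Cirbp over the 8 arrays were found by r of log2 level, which the difference between groups itself raises. They were Hnrnpd (r = 0.99), Dus3l (0.99), Btg3 (0.98), Fance (0.98) and Sbsn (0.98). Hnrnpd encodes AUF1, an RNA-binding protein that governs the decay of AU-rich mRNAs, Dus3l a tRNA dihydrouridine synthase, Btg3 an antiproliferative protein and Fance a member of the Fanconi anaemia repair complex. Within groups, r was between 0.84 and 0.94 for these 5 genes. Their choice by r over the same arrays largely sets this, so it is no separate support. The most unlike were Hdhd2 (r = -0.99), Pkd2 (-0.99), Ccdc103 (-0.98), Mkks (-0.98) and Slc9a8 (-0.97). Pkd2 encodes polycystin-2, a cation channel of the primary cilium, and Slc9a8 a sodium-proton exchanger. Pkd2 was at 3.93 ± 0.08 in controls and 3.49 ± 0.07 with cinacalcet, and Slc9a8 was at 6.28 ± 0.21 and 4.95 ± 0.12 (SD, n = 4 each).

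The genes most like Rbm3, by its brightest probe, were Cited4 (r = 0.99), Neurl2 (0.98), Vsig8 (0.98), Ambp (0.98) and Med15 (0.98). Cited4 encodes a transcriptional coactivator, Ambp the precursor of alpha-1-microglobulin and bikunin, and Med15 a Mediator subunit. The most unlike were Pcbd1 (r = -0.99), Fcgr2b (-0.98), Nfam1 (-0.98), Fgd2 (-0.98) and Ccr2 (-0.98). Pcbd1 encodes a dehydratase that recycles tetrahydrobiopterin, Fcgr2b an inhibitory receptor for IgG and Ccr2 a chemokine receptor of monocytes. Fcgr2b was at 0.80 ± 0.11 in controls and -0.09 ± 0.17 with cinacalcet. Cirbp and Rbm3 had r = 0.94 with each other, and 97 genes were more like Cirbp than Rbm3 was.

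**Figure D3:**
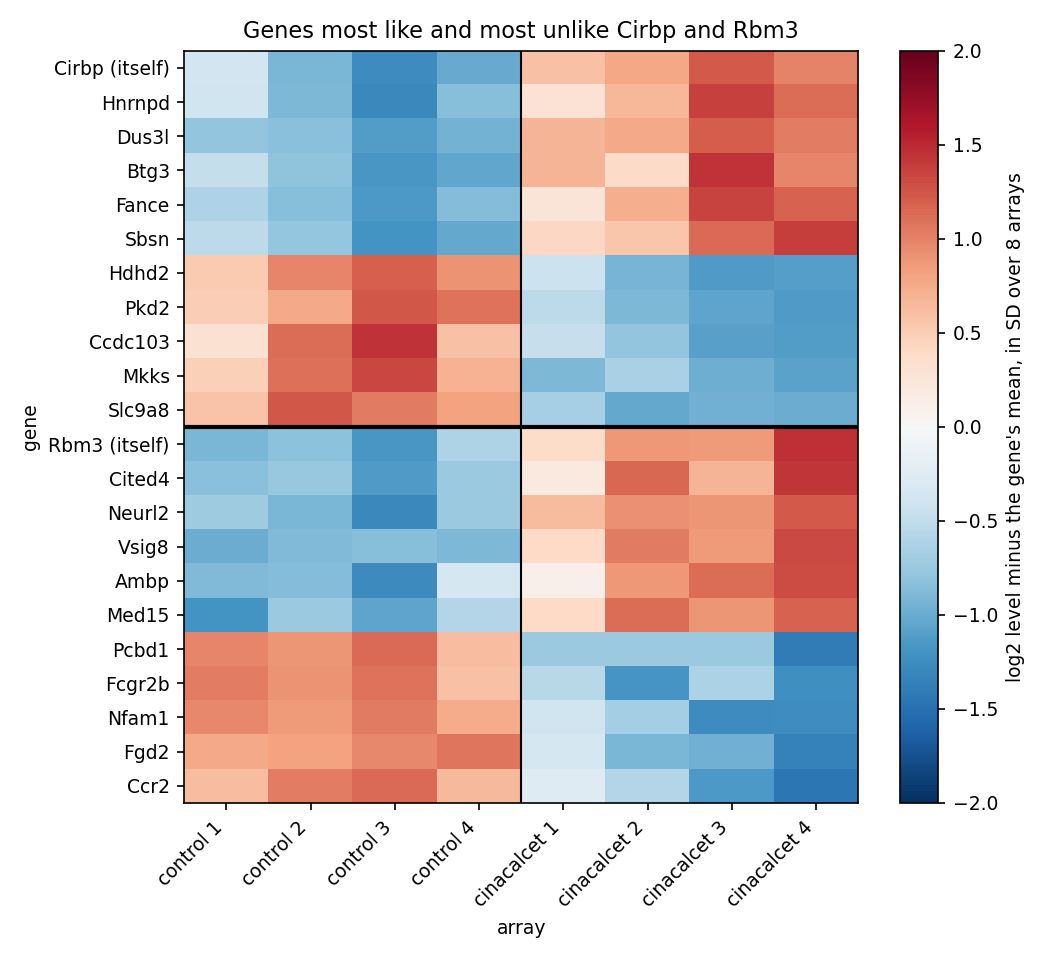
Level of Cirbp and Rbm3 and of the 5 genes most like and 5 most unlike each (rows) on the 8 arrays (columns), as log2 level minus the gene's mean in units of its SD over the arrays. The genes were chosen for this likeness. Cirbp and Hnrnpd both peak on cinacalcet 3, and Rbm3 and Cited4 on cinacalcet 4.

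Some markers of other cells moved with the groups, where 8.02% of all 14209 genes passed in limma. Of 6 measured erythroid markers 5 fell in limma, and the sum of their linear levels was 1799 to 2127 on control arrays and 440.3 to 1210 on cinacalcet arrays. Of 7 measured immune markers 3 fell (Itgax, Adgre1 and Csf1r) and 2 rose (S100a8 and S100a9), with sums of 32.0 to 35.7 and 23.6 to 29.9. Of 9 fat markers 1 fell (Ucp1), or 11.1%, and all 9 had negative differences. Their sums overlapped, at 92.8 to 307.6 on control arrays, highest on control 4, and 57.9 to 152.6 on cinacalcet arrays. Of the 11 kidney epithelial markers none passed in limma. None had an unadjusted limma p under 0.05, against 27.9% of all 14209 genes, and 8 had positive differences. Their sums were 2375 to 2952 and 1493 to 2626, lowest on cinacalcet 2 and 3, both without Y-linked signal. A sum follows its brightest genes, here Kap (10.5 ± 0.28 in controls, 9.33 ± 1.23 with cinacalcet, groups overlapping). The immune sum likewise follows Csf1r most. Lep, Cd68 and Ms4a1 were not well above background on any array. Cirbp and Rbm3 are made by most cell types, and the part of these cells in their difference was not tested. In whole kidney, fewer cells of a type and less RNA per cell cannot be told apart.

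Genes related to Cirbp and Rbm3 by family, regulation or temperature were read from 7 lists, with the test of limma across all genes. Of 14209 genes 8.02% passed an adjusted p of 0.05 (3.37% higher and 4.64% lower, 1139 genes), and the median difference over all genes was -0.03. Of 143 measured listed genes 14 passed, which is 9.79%, with 7 higher and 7 lower and a median difference of -0.03. The share of listed genes called was thus near that of all genes. The count changed with single arrays. It was 4, 2 or 1 without control 1, 2 or 3, 45 without control 4, and 4, 3 or 8 without cinacalcet 2, 3 or 4.

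The largest of these lists by number holds other proteins named for an RNA-binding motif. None of 36 measured members passed in limma, with an adjusted p of 0.0611 as the lowest and 6 at an unadjusted p under 0.05, where 27.9% of all genes were. Their median difference was 0.04. The differences ran from -0.53 to 0.35. The members with the lowest p were Rbm26, with a difference of 0.21, and Rbm4, a splicing regulator, at 3.41 ± 0.27 in controls and 2.88 ± 0.15 with cinacalcet (limma adjusted p = 0.0624).

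Among heterogeneous nuclear ribonucleoproteins and the FET proteins, 2 of 27 rose and 2 fell (14.8%, against 8.02% of all genes). The median difference was 0.07. Hnrnpdl rose from 3.30 ± 0.06 to 3.88 ± 0.19 (limma adjusted p = 0.0203), and its second probe differed by 0.43. Its paralog Hnrnpd rose from 2.84 ± 0.10 to 3.34 ± 0.14 (limma adjusted p = 0.0228). Hnrnpul2 fell from 0.66 ± 0.06 to 0.28 ± 0.10 (limma adjusted p = 0.0241). Tardbp, which encodes the splicing repressor TDP-43, fell from 4.76 ± 0.18 to 4.15 ± 0.18 on its brightest probe (limma adjusted p = 0.0260). Its probes disagreed, as those of Rbm3 did, since its dimmer probes differed by -0.43 and, without overlap of the groups, by 0.23. With the mean over its probes the difference was -0.27 and no longer passed (limma adjusted p = 0.0718).

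Among temperature-sensitive CLK kinases, the SRPK kinases and the SR splicing factors, 4 of 20 rose and 1 fell (25%, against 8.02% of all genes). The median difference was 0.10. Srsf5 rose from 3.40 ± 0.10 to 3.95 ± 0.16 (limma adjusted p = 0.0209) and Srsf4 from 1.85 ± 0.14 to 2.30 ± 0.08 (limma adjusted p = 0.0257). Srrm1, a splicing coactivator, rose from 4.30 ± 0.09 to 4.69 ± 0.12 (limma adjusted p = 0.0346). Son, a nuclear speckle scaffold named after its value was seen, rose by 0.29 (limma adjusted p = 0.0471). Tra2a fell from 3.27 ± 0.18 to 2.65 ± 0.07 (limma adjusted p = 0.0154). None of the kinase genes Clk1, Clk2, Clk3 and Clk4 passed, with unadjusted p of 0.216 to 0.642 in limma.

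**Figure D4:**
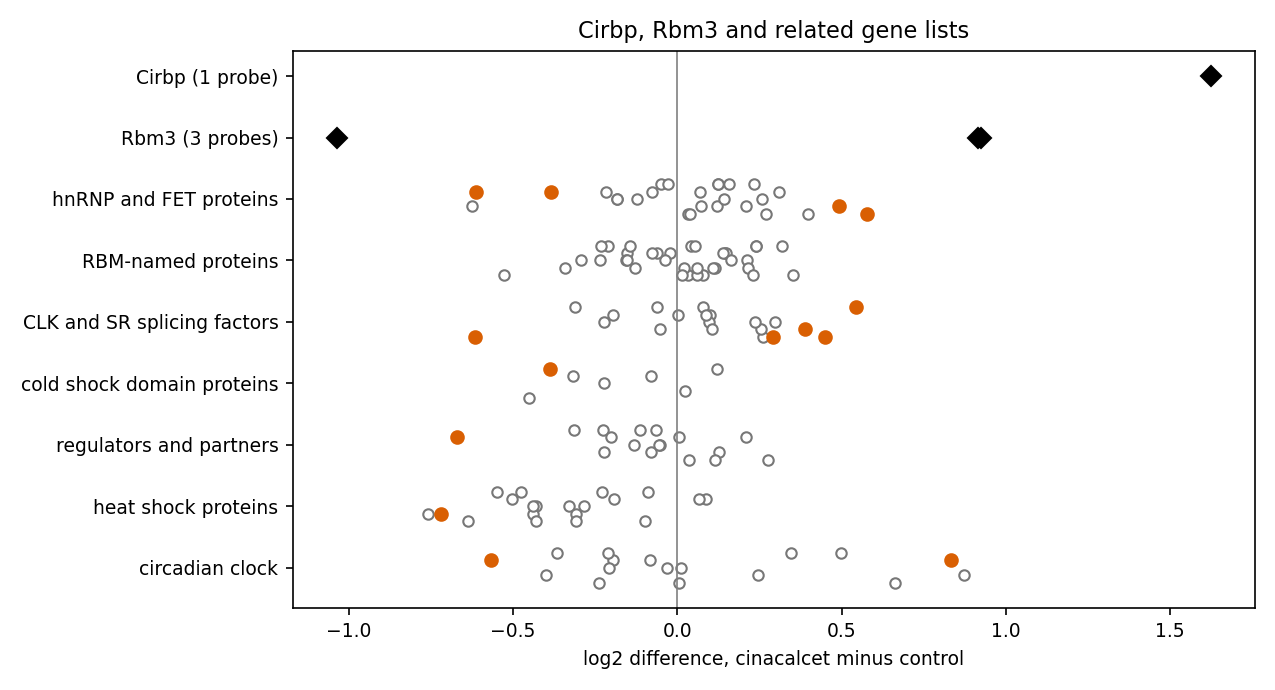
Log2 difference, cinacalcet minus control (horizontal axis), of the Cirbp and Rbm3 probes (black diamonds) and of the brightest probe of each listed gene (circles, by list). Orange circles are the genes past a limma adjusted p of 0.05 and open circles the rest. Listed genes lie between -0.76 and 0.87, and 18 of 20 heat shock genes lie left of 0.

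Heat shock proteins, which heat induces, had negative differences in 18 of 20 measured members. Of these 20, 1 passed (5%, against 8.02% of all genes), and 13 had an unadjusted p under 0.05 in limma. Of all genes 54.6% had a negative difference and 27.9% an unadjusted p under 0.05. The median difference was -0.38, against -0.03 over all genes. The member that passed was Chordc1, a cochaperone of HSP90, which fell from 2.31 ± 0.32 to 1.59 ± 0.20 (limma adjusted p = 0.0427). Among proteins with a cold shock domain, 1 of 7 passed (14.3%, against 8.02% of all genes), with a median difference of -0.22. It was Carhsp1, which fell from 3.29 ± 0.06 to 2.90 ± 0.05 (limma adjusted p = 0.0162), while its dimmer probe differed by -0.10 with overlapping groups. With the mean over both probes the difference was -0.24 and did not pass (limma adjusted p = 0.0590).

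Of 17 genes described as regulators, modifiers, importers, targets or receptors of Cirbp or Rbm3, 1 passed (5.88%, against 8.02% of all genes). Their median difference was -0.07. The gene that passed was Ly96, whose product MD-2 binds extracellular Cirbp protein together with the receptor Tlr4. Ly96 fell from -0.324 ± 0.199 to -0.996 ± 0.221 (limma adjusted p = 0.0304). Of 17 measured clock genes 1 rose and 1 fell (11.8%, against 8.02% of all genes). Per1, a clock repressor also induced by glucocorticoids, rose from 3.99 ± 0.07 to 4.82 ± 0.14 (limma adjusted p = 0.00801). Dbp, a clock output factor, fell from 6.78 ± 0.20 to 6.21 ± 0.06 (limma adjusted p = 0.0228), and its second probe differed by -0.78.

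Of the 13 genes of these lists that were named by rule and passed, Per1 still passed whichever array was left out (adjusted p of at most 0.0323 in limma). Each of the other 12 failed to pass in at least 1 of these fits. All 13 passed when a block for Y-linked signal was fitted, and 7 did on the 5 arrays with that signal. Without the filter on dim probes 5 passed, Per1 among them. None of the 13 passed with slide column as a block, where Per1 had an adjusted p of 0.0846 in limma, or within slide row 1 or 2, where it had 0.131 and 0.264.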

How the data were processed

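The deposited files are scanner output of 8 one-colour Cy3 arrays, with spot intensity on a linear scale. The file headers name Agilent Feature Extraction 11.0.1.1 and the submitters' processing notes version 9.5. Per the file headers, this software subtracted background to give the processed intensity, and the authors' files record no step that normalizes between arrays. The deposited files also hold other values, the flags of each spot, which are 0 or 1.

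Control spots were removed, and spots that the software flagged as outliers were not used. The spots of each probe were averaged and taken as log2, and log2 of the array's 75th percentile was subtracted. RefSeq accessions without version named 27223 of 55650 probes. Tests across genes used the brightest probe of each gene among those well above background on 4 or more of the 8 arrays. The comparison was fitted in limma 3.58.1 (R 4.3.3) with Benjamini-Hochberg adjustment over 14209 genes. The number of arrays limits the precision.

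The members, the gene lists and the alternatives were chosen with earlier results of these data known. Genes were named by rule, as all member probes, up to 4 genes per list past the threshold with the lowest p (the 2 lowest where none passed), and the 5 genes most like and most unlike each member. Simulated data for this comparison, with 14209 genes of which 200 were changed, were used to check it. Genes changed by 0.5 log2 units were recovered in 48% of cases, by 1 unit in 66% and by 2 units in 96%. Of the 161 genes called there, 6 were unchanged. The adjustment depends on the share of changed genes, so these rates may not hold for the data, where 1139 genes passed. Alternatives were quantile normalization, normexp with an offset of 50 on median signals, another scale, other filters, the mean over probes, blocks for replicate number, slide row, slide column and Y-linked signal, subsets of arrays, and leaving out each array.

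Replicate numbers were not treated as pairs in the main comparison. Deviations from group means of same-numbered arrays correlated at 0.34, -0.54, -0.36 and -0.56 across genes, for numbers 1 to 4. Numbers 2, 3 and 4 each join an array with Y-linked signal to an array without it. These values therefore cannot show whether the numbers pair the samples.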

Additional observations from a re-analysis of the deposited data

Results flagged for a closer look

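In 38 sets of 4 arrays, 1 for each group of each Cirbp or Rbm3 probe and each named list gene, 3 had 1 array far from the other 3, where about 5% of such sets do so by chance. None was a set of a Cirbp or Rbm3 probe. Srsf4 was at 2.19 on cinacalcet 1 and at 2.33 to 2.36 on the other cinacalcet arrays. Srrm1 was at 4.51 on cinacalcet 2, below 4.74 to 4.76 on the others. Carhsp1 was at 3.20 on control 4, below 3.31 to 3.33 on the other controls.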

How the results depend on the processing

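Cirbp and the 3 Rbm3 probes kept their direction under each alternative run, and where groups do not overlap the direction cannot change with fewer arrays. With single arrays left out the difference ranged from 1.51 to 1.78 for Cirbp, 0.82 to 1.01 for A_51_P262340, 0.81 to 1.00 for A_55_P2117525 and -1.28 to -0.68 for A_52_P280360. The difference of A_52_P280360 moved to -0.36 with normexp and to -1.66 with slide column as a block, which compares the groups only through 2 columns. The mean over its 3 probes moved Rbm3 to 0.27. In limma, 1139 genes and 14 listed genes passed. These counts were 367 and 5 without the filter, 34 and 0 with slide column as a block, 2417 and 25 with Y-linked signal as a block, 1 and 0 within slide row 1, and 0 and 0 within slide row 2, where 1068 genes had an unadjusted p under 0.05. Quantile normalization called 22 listed genes. With replicate number as a block (the replicate block) 0 genes and 0 listed genes passed in limma, with 2869 at an unadjusted p under 0.05, and the member differences were unchanged at 1.62, 0.92, 0.92 and -1.04. With single arrays left out the counts ranged from 219 to 3359 genes and from 1 to 45 listed genes. None of the 13 listed genes named by rule as passing did so with the replicate block, where Per1 had an adjusted p of 0.0705 in limma. The cause was not tested.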

Other observations

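A gene beside Cirbp and a gene beside Rbm3 had negative differences, and are named after the values of the pair were seen. The difference was -0.42 for Fam174c, without overlap of the groups, and -0.07 for Wdr13, with overlap. Of all genes tested 54.6% had a negative difference, and 7.33% of the 29732 probes were lower without overlap. Fam174c, beside Cirbp on chromosome 10, was at 2.03 ± 0.12 in controls and 1.61 ± 0.18 with cinacalcet (SD, n = 4 each), with a limma adjusted p of 0.0532. Wdr13, beside Rbm3 on chromosome X, was at 2.43 ± 0.08 and 2.36 ± 0.05, with a limma adjusted p of 0.50.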
